A study of Mus musculus with 23 samples.

Results

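Lysosomes are the acidic organelles in which cells break down protein, sugar chains and lipid, and the 43 genes described here encode their cathepsins and other hydrolases, their membrane proteins, subunits of their proton pump and the transcription factor Tfeb. The genes were taken as a named list, all 43 of the 43 were found among the 19945 genes of the deposited table, and all 43 passed the filter on low values that left 15268 genes for testing. By role they are 12 proteases, 11 glycan hydrolases, 7 lipid hydrolases and activator proteins, 7 membrane proteins, 5 proton pump proteins and Tfeb. They were followed across 23 RNA sequencing libraries of mouse cells labelled as ILC2s, group 2 innate lymphoid cells, which are tissue lymphocytes that respond to IL-33.

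All groups carry the genotype label B6.Cg-Tg(CAG-GFP)Smoc, in which a ubiquitous promoter drives green fluorescent protein, although the protocol speaks of both transgenic and wild-type males of 8 to 10 weeks. Donors received IL-33 into the peritoneum every 2 days over 7 days. Lineage-negative CD25+ cells of bone marrow and spleen were then kept 14 days in culture with IL-7, IL-33, IL-2 and IL-15 and sorted as CD45+Lin-ST2+KLRG1+CD127+. These cells were injected into a vein 6 hours after MCAO, the occlusion of the middle cerebral artery that serves as a stroke model. The brain day 5 group (6 libraries) was recovered from brain on day 5, the blood day 5 (6 libraries) and blood day 1 (6 libraries) groups from blood, and the base group (5 libraries) was taken straight from culture without transfer. The sources used here state neither the gate used on recovery, nor the genotype of the recipients, nor whether each library is a separate animal, so p-values measure the spread between these libraries, which may be technical. The labels also give a batch, with 12 libraries in batch 1 and 11 in batch 2, and every group has libraries in both.

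Recovered depth ran from 11.6 to 58.1 M reads per library (M, mega), with 11.6 to 16.9 M in batch 1 and 27.8 to 58.1 M in batch 2. The label was checked against markers before any result. The brain libraries held little of the ILC2 markers: 10 of 12 listed markers are in the table and summed to 0.0117 ± 0.00353% of the normalized total in brain day 5 (SD), 0.239 ± 0.0293% in blood day 5, 0.133 ± 0.0655% in blood day 1 and 0.23 ± 0.0656% in base. Gata3, the defining transcription factor of these cells, averaged 13.3 normalized counts in brain day 5 and 1588 in blood day 5, and Klrg1, a receptor of the sort, averaged 9.4 and 10829 in the same groups. In base Gata3 averaged 315 and Klrg1 23914. Il1rl1, which encodes ST2, another receptor of the sort, averaged 56.1 in brain day 5, 125 in blood day 5, 135 in blood day 1 and 1.08 in base, where it was thus near 0. The sources used here do not state whether the base libraries were made after that sort. Of the 9 ILC2 markers tested, none was higher and 6 were lower in brain day 5 than in blood day 5, and 3 were higher and 5 lower in brain day 5 than in base. Ptprc, which encodes CD45 and is not particular to ILC2s, is among the listed ILC2 markers and in their sum. It averaged 1595 in brain day 5 and 27858 in blood day 5, above Gata3, Klrg1 and Il1rl1 in both groups. The summed share is therefore not one of ILC2 genes alone. Microglia markers were high in the brain libraries instead: the 15 listed markers, all in the table, summed to 1.2 to 3.34% of the total in brain day 5, 0.068 to 0.0974% in blood day 5, 0.0574 to 0.138% in blood day 1 and 0.00576 to 0.0253% in base, where Sall1 was at 0 in every library. Of these 15 markers, 14 were higher and none lower in brain day 5 than in blood day 5. Choroid plexus markers (8 genes, 1.05 to 3.78% in brain day 5, at most 0.0752% elsewhere) and oligodendrocyte markers (8 genes, 1 to 1.53%, at most 0.222% elsewhere) moved the same way, and none of these markers was at 0 throughout the brain group. Astrocyte (8 of 8), endothelial (6 of 7, 1 lower) and neuron markers (5 of 8) were also higher in brain day 5 than in blood day 5. Monocyte and macrophage markers split, with 5 of 9 higher and 3 lower. Neutrophil (9 of 10), B cell (8 of 8), platelet (9 of 9), NK cell (8 of 8) and T cell markers (7 of 7) were lower. The part of these other cells in the brain differences below was not tested. In bulk libraries, fewer cells of a type and less RNA per cell cannot be told apart. Blood day 1 replicates 2 and 6, brain replicate 2 and base replicate 5 had the lowest median correlation with their own group in their groups, from 0.833 to 0.881, and counts without these 4 are given with each comparison.

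Most lysosomal hydrolases are made as inactive precursors, carried to the organelle through mannose 6-phosphate receptors or sortilin, and switched on by low pH, which the vacuolar proton pump maintains. Cathepsins degrade protein and some trim other cathepsins, glycosidases and sulfatases strip sugar chains one residue at a time, and saposins and the GM2 activator present membrane lipids to soluble enzymes. Tfeb and its relatives enter the nucleus when mTORC1 is inactive and bind the E-box core CACGTG, often within a longer palindrome, in promoters of many lysosomal genes. In the brain, microglia, the resident phagocytes, are known for high cathepsin levels.

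Because Tfeb is one of the genes, the E-box core was searched in the RefSeq promoter windows (build GRCm38.p6), which were present for 36 of the 43 genes. In the 250 bases before the annotated start, CACGTG (a palindrome, so both strands are covered) occurred in 13 of the 36 genes (36.1%), against 1854 of 27025 genes in the promoter table (6.86%). The longer palindrome TCACGTGA, which contains that core, occurred in 5 of the 36 (13.9%), against 245 of 27025 genes (0.907%), and the full CLEAR palindrome, which extends it by 1 base on each side, occurred in 0 of the 36, against 73 of 27025 (0.27%). The 13 genes with the core were the proteases Ctsa, Ctsd, Ctsf, Ctsl and Lgmn, the glycan hydrolases Gla, Glb1, Gaa, Naglu and Sgsh, the membrane genes Lamp1 and Mcoln1, and the pump gene Atp6v1a. For Ctsa and Lgmn the core lies before a start inside the annotated gene, and the window at the outer start holds no core. The cores of Ctsl, Atp6v1a and Naglu also lie inside the annotated gene, and those of Ctsd, Mcoln1 and Sgsh do so in part. Lamp1 held 4 cores, and Ctsd, Gla and Mcoln1 held 2 each. The first 5 sequences below were chosen among genes with the core whose window lies outside the annotated gene, and the last 3 are genes with large differences and no core in their 250 bases, with the 60 bases before the start shown. Each runs 5′ to 3′ on the gene's strand, and capitals mark the core.
Lamp1 (chr8:13159083-13159160, plus strand): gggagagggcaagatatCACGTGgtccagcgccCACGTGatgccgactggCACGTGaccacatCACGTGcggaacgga
Gla (chrX:134601177-134601249, minus strand): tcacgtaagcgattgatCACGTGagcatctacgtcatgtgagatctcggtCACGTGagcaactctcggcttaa
Ctsf (chr19:4855069-4855108, plus strand): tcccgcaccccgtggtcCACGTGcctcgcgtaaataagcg
Gaa (chr11:119267806-119267845, plus strand): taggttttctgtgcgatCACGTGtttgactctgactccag
Glb1 (chr9:114401013-114401052, plus strand): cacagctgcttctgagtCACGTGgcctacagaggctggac
Ctsk (chr3:95499150-95499209, plus strand): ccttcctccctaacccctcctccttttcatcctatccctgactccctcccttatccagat
Ctss (chr3:95526726-95526785, plus strand): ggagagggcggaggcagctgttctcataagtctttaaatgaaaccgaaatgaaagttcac
Gm2a (chr11:55097925-55097984, plus strand): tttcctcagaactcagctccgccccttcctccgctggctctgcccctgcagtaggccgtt
A match is a description of the letters and not a binding site.

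**Figure D1:**
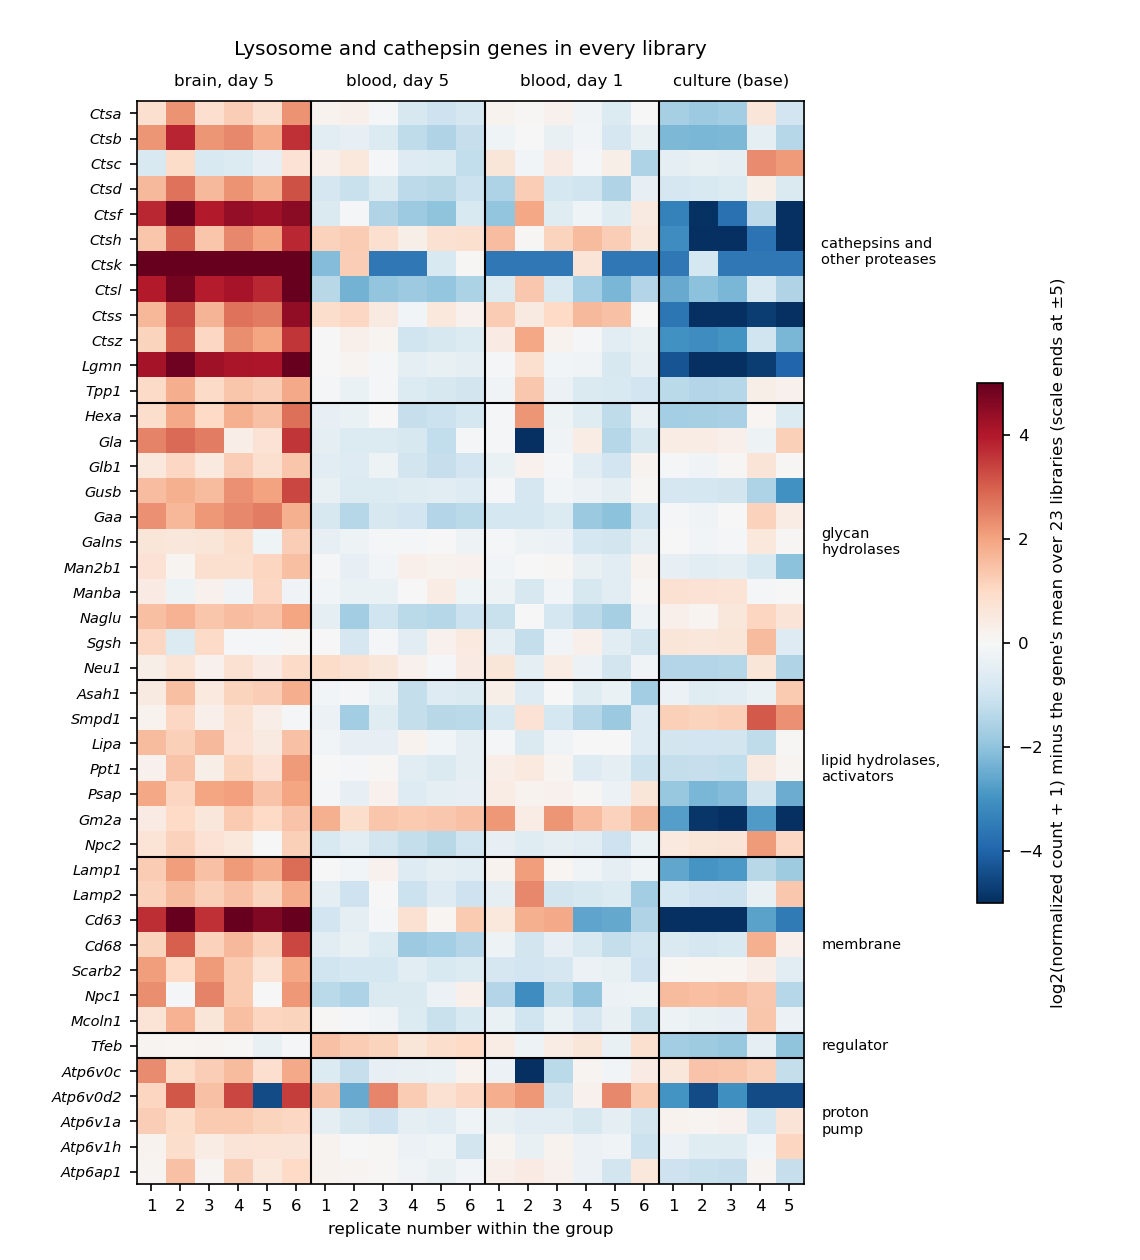
Level of the 43 genes (rows, grouped by role) in 23 libraries (columns, replicate number within brain day 5, blood day 5, blood day 1 and base). Colour is log2(normalized count + 1) minus the gene's own mean over the 23 libraries, with the scale ending at ±5. Red fills the brain columns for most rows, and the base columns are blue for Ctsh, Ctss, Lgmn, Cd63 and Gm2a.

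In brain day 5, lysosomal genes stood far above blood day 5. Of the 43 genes, 35 were higher, 1 was lower and 7 did not pass (limma on log2(normalized count + 1), two-sided, Benjamini-Hochberg adjusted p under 0.05 over all 15268 genes). Among all genes tested, 47.9% were called, 33.5% higher and 14.3% lower. The median log2 difference was 1.86 over the 43 genes and 0.47 over all genes tested. Every called gene had the same sign in both batches, and 28 of the 43 were called in batch 1 alone and 28 in batch 2 alone. Library groups did not overlap for 33 of the 43 genes, against 35.4% of all genes tested. Together the 43 genes made up 7.19 ± 2.5% of the normalized total in brain day 5 and 1.46 ± 0.169% in blood day 5 (SD, n = 6 each), and proteases took the largest part of it, 5.23 ± 2.19% in brain day 5 and 0.798 ± 0.132% in blood day 5. Scaled to equal library totals, 29 were higher and 1 lower, the median over all genes was 0.08 and the median of the 43 was 1.45. Over all genes that scaling changed the split from 5119 higher and 2187 lower to 4392 and 2982, and TMM scaling gave 4401 and 3143. Without the 4 libraries that stand apart, 35 were higher and 1 lower.

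Of the 12 proteases, 11 were higher in brain day 5 than in blood day 5. Gene positions are those of GENCODE M21 on mm10, and values are normalized counts, given as the lowest, median and highest library of a group, and log2 differences are given with their SE. Ctsk (chr3:95499256-95509362, plus strand), a cysteine protease best known for digesting collagen in osteoclasts, had 699, 1553 and 2643 in brain day 5, against 0, 3.81 and 26.5 in blood day 5. No blood library came near the lowest brain library, and the log2 difference was 8.32 ± 0.90 (adjusted p = 4.86e-08, 9.06 in batch 1 and 7.58 in batch 2), the largest of the 43. Ctsl had 21235, 25663 and 54968 in brain day 5, against 303, 417 and 597 in blood day 5, again without overlap. Ctsl (chr13:64359337-64370890, minus strand), a broad endopeptidase, differed by 6.13 ± 0.44 (adjusted p = 6.06e-11), with the same size in both batches (6.12 in batch 1 and 6.14 in batch 2). Ctsf had 3434, 5027 and 12333 in brain day 5, against 61.5, 118 and 237 in blood day 5. That is a log2 difference of 5.57 ± 0.63 (SE), adjusted p = 1.13e-07, for a little studied cysteine cathepsin, with brain replicate 2 far above the other 5 brain libraries. Lgmn (chr12:102394084-102439813, minus strand) encodes legumain, the asparaginyl endopeptidase that cleaves several cathepsins into their chains. It had 44743, 49023 and 154639 in brain day 5, against 1961, 2275 and 2983 in blood day 5, a log2 difference of 4.74 ± 0.37 (SE), adjusted p = 2.91e-10, and brain replicate 6 held the highest value.

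The abundant proteases followed. Ctsb rose by 3.61 ± 0.36 (adjusted p = 1.53e-08) to a mean of 368055 ± 224858 normalized counts in brain day 5, against 27124 ± 8065 in blood day 5 (SD, n = 6 each). Ctsd (chr7:142375911-142388038, minus strand), the main aspartic protease of the lysosome, rose by 3.27 ± 0.40 (adjusted p = 2.97e-07), to 631327 ± 306043 in brain day 5, against 60997 ± 11607 in blood day 5. Ctsd ranked from 1 to 3 among all genes in each of the 6 brain libraries. Ctss had 28822, 56902 and 193574 in brain day 5, against 8172, 12734 and 18582 in blood day 5. Ctss, which trims the invariant chain of MHC class II, differed by 2.23 ± 0.44 (adjusted p = 0.000175), more in batch 2 than in batch 1 (1.42 in batch 1 and 3.04 in batch 2), and its call ended in batch 1 alone (adjusted p = 0.0566). Ctsz, a carboxypeptidase of the cysteine family, rose by 2.52 ± 0.47, Tpp1, a tripeptidyl peptidase, by 1.86 ± 0.38 and Ctsa, the carboxypeptidase that stabilizes sialidase and beta-galactosidase, by 1.75 ± 0.39 (adjusted p = 9.46e-05, 0.000242 and 0.00062). Ctsh had 7321, 13108 and 38128 in brain day 5, against 3414, 4909 and 6855 in blood day 5. The log2 difference of this aminopeptidase was 1.49 ± 0.54 (adjusted p = 0.0263), and its call ended without blood day 5 replicate 4 (adjusted p = 0.0571), brain replicate 2 (0.0585) or brain replicate 6 (0.0812), and under equal-total and TMM scaling. The call on Ctsh also ended with edgeR and in each batch alone, and over all these settings its adjusted p reached 0.357. Ctsc, which activates granzymes and other granule serine proteases, was the protease that did not pass, with 0.14 ± 0.52 (adjusted p = 0.853).

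**Figure D2:**
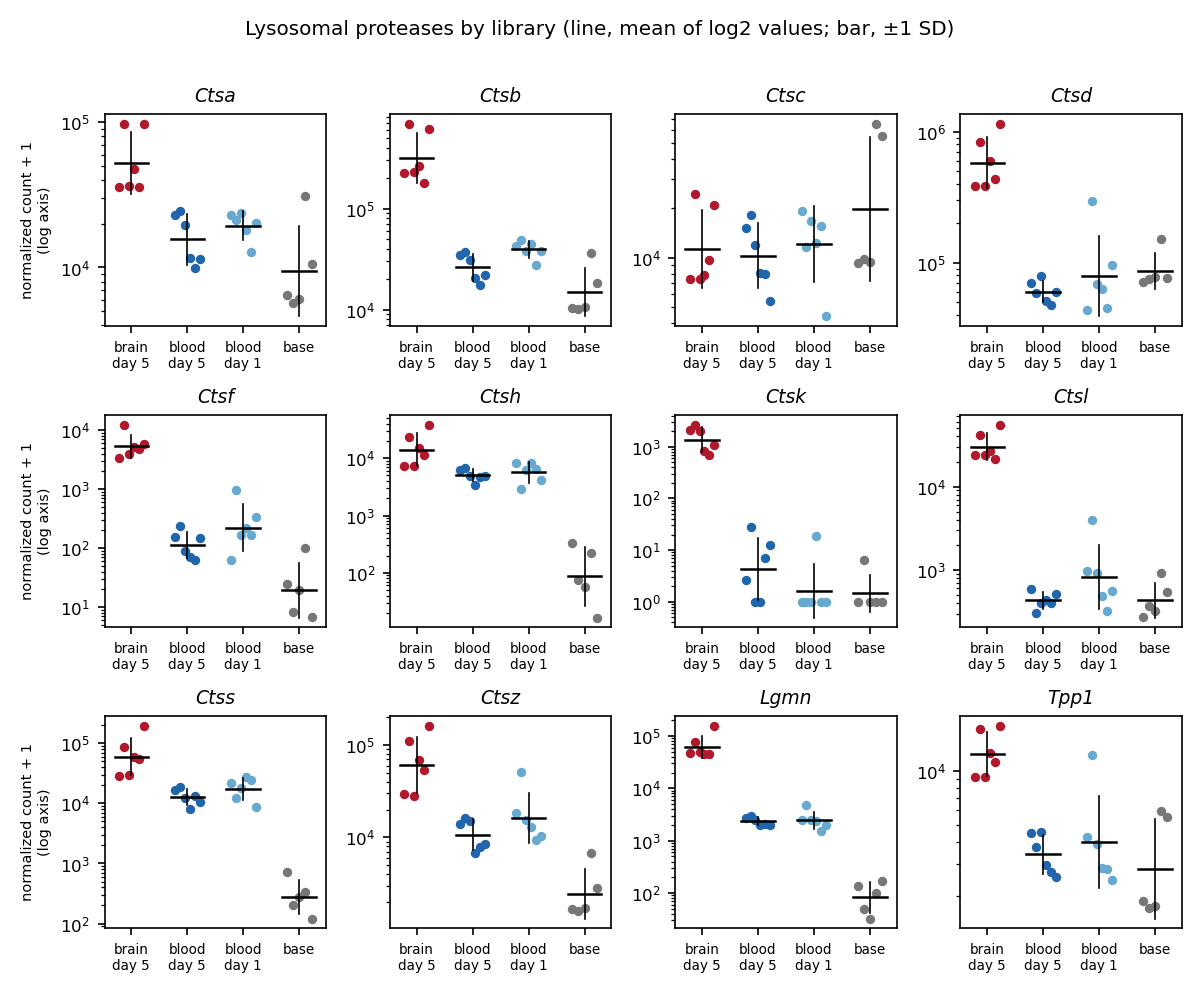
Normalized counts + 1 (log axis) of the 12 proteases in each library of brain day 5, blood day 5, blood day 1 and base. Points are libraries, the line is the mean of the log2 values and the bar ±1 SD. Brain points lie above all blood day 5 points in every panel but Ctsc, and the base points of Ctsh, Ctss and Lgmn lie below all other groups.

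Among the 11 glycan hydrolases, 8 were higher in brain day 5 than in blood day 5 and none was lower. Gaa had 8564, 12617 and 15857 in brain day 5, against 979, 1229.6 and 1533 in blood day 5. Gaa, the acid glucosidase that degrades glycogen, gave a log2 difference of 3.28 ± 0.27 (SE), adjusted p = 7.45e-10, and its groups did not overlap. Naglu had 5612, 6086 and 8220.5 in brain day 5, against 627, 924 and 1500.3 in blood day 5. Naglu, an enzyme of heparan sulfate breakdown, gave a log2 difference of 2.77 ± 0.27 (SE), adjusted p = 9.42e-09, again with no overlap. Gla had 404, 1851 and 3875 in brain day 5, against 227, 201, 199, 184, 135 and 297 in blood day 5 replicates 1 to 6. Gla, the alpha-galactosidase A that removes galactose from glycolipids, was uneven in brain, where replicates 4 and 5 lay closest to the blood libraries. Its log2 difference was 2.76 ± 1.00 (adjusted p = 0.0262). The call on Gla ended without blood day 5 replicate 5 (adjusted p = 0.0519) or brain replicates 2 (0.0533), 3 (0.0504) or 6 (0.0625), and under both other scalings. It also ended in each batch alone and with the libraries closest to each other averaged, and over all these settings the adjusted p reached 0.17. Gusb (beta-glucuronidase, 2.69 ± 0.33), Hexa (the alpha chain of beta-hexosaminidase, 2.27 ± 0.46) and Glb1 (beta-galactosidase, 1.65 ± 0.24) rose as well, while Man2b1 (an alpha-mannosidase, 0.84 ± 0.26) and Galns (a sulfatase of keratan sulfate, 0.78 ± 0.23) rose less and were not called under equal-total scaling, TMM scaling or edgeR. Hexa did not pass in batch 1 alone (adjusted p = 0.0565). Manba (0.28 ± 0.26), Sgsh (0.32 ± 0.37) and the sialidase Neu1 (0.09 ± 0.33) did not pass, with adjusted p of 0.398, 0.514 and 0.862.

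Of the 7 lipid hydrolases and activators, 6 were higher in brain day 5 than in blood day 5. Psap had 85460.0, 155356 and 166034 in brain day 5, against 25956, 30066 and 46992 in blood day 5. Psap, the precursor of the saposins, gave a log2 difference of 2.05 ± 0.26 (SE), adjusted p = 5.85e-07 without overlap. Npc2 had 8719, 14426 and 20375 in brain day 5, against 3369.7, 4563 and 6096 in blood day 5. Npc2, which shuttles cholesterol inside the lysosome, gave a log2 difference of 1.67 ± 0.26 (SE), adjusted p = 1.04e-05, with similar values in the batches (1.58 in batch 1 and 1.76 in batch 2). Asah1 had 4747, 7718 and 11968 in brain day 5, against 1494, 2488 and 3188 in blood day 5. Asah1, the acid ceramidase, gave a log2 difference of 1.62 ± 0.35 (SE), adjusted p = 0.000484. Smpd1 had 3868, 4906 and 8255 in brain day 5, against 1209, 1665 and 3290.1 in blood day 5, where brain replicate 6 was the lowest of its group. Smpd1 encodes acid sphingomyelinase and differed by 1.51 ± 0.39 (adjusted p = 0.00245). Lipa (acid lipase, 1.40 ± 0.25) and Ppt1 (a thioesterase that removes palmitate, 1.26 ± 0.36) rose too, with adjusted p of 5.38e-05 and 0.00563, but Lipa did not pass in batch 2 alone (adjusted p = 0.0822) and Ppt1 neither in batch 1 alone nor under TMM scaling (up to 0.103). Gm2a, the activator that lifts GM2 ganglioside from membranes, had 4007, 5950.2 and 8069 in brain day 5, against 5499.8, 7735 and 10194 in blood day 5, and did not pass (-0.40 ± 0.54, adjusted p = 0.578).

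All 7 membrane genes were higher in brain day 5 than in blood day 5. Cd63 had 16853, 43764 and 131115 in brain day 5, against 703, 1352 and 3369 in blood day 5. Cd63 (chr10:128900989-128912822, plus strand), a tetraspanin of late endosomes and secretory granules, gave a log2 difference of 4.80 ± 0.88 (SE), adjusted p = 7.3e-05. Cd68 had 18639, 22726 and 85354 in brain day 5, against 2408, 4184 and 6586 in blood day 5. Cd68, a heavily glycosylated protein of phagocyte lysosomes and itself a macrophage marker, gave a log2 difference of 2.99 ± 0.45 (SE), adjusted p = 7.02e-06, with brain replicates 2 and 6 far above the rest. Scarb2 had 4125, 8185 and 11436 in brain day 5, against 1294, 1474 and 1781 in blood day 5. Scarb2, which carries glucocerebrosidase to the lysosome, gave a log2 difference of 2.31 ± 0.25 (SE), adjusted p = 4.52e-08 (2.66 in batch 1 and 1.96 in batch 2). Npc1 had 898, 3400.2 and 5486 in brain day 5, against 331, 593 and 1156 in blood day 5. Npc1, the cholesterol exporter that takes over from Npc2, overlapped between the groups and gave a log2 difference of 2.10 ± 0.59 (SE), adjusted p = 0.00499, which did not pass in batch 2 alone (adjusted p = 0.199). The major membrane glycoproteins Lamp1 (2.18 ± 0.38) and Lamp2 (2.09 ± 0.50) and the cation channel gene Mcoln1 (1.58 ± 0.31) rose by similar amounts, with adjusted p of 3.54e-05, 0.00124 and 0.000141, and Lamp2 did not pass in batch 1 alone (adjusted p = 0.0671).

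Tfeb (chr17:47737030-47792419, plus strand) was the one gene of the 43 that was lower in brain day 5 than in blood day 5. It had 1009, 1366 and 1443 in brain day 5, against 1962, 2709 and 3586 in blood day 5, with no overlap. The log2 difference was -1.06 ± 0.27 (adjusted p = 0.00186, -1.15 in batch 1 and -0.97 in batch 2), and it did not pass in batch 2 alone (adjusted p = 0.12). Of the 13 genes with the E-box core, 12 were higher and none lower, with a median of 2.76, and of the 23 genes with a promoter window and no core, 17 were higher and 1 (Tfeb) lower, with a median of 1.86. Against base, 11 of the 13 and 18 of the 23 were higher in brain day 5, with medians of 1.89 and 1.80. In blood day 5 against base, 3 with the core were higher and 4 lower (median -0.52), and 9 and 3 without it (0.56). In blood day 1 against base these were 3 and 4 (-0.35), and 9 and 4 (0.51). The part of Tfeb in these differences was not tested.

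Of the 5 proton pump genes, 3 were higher in brain day 5 than in blood day 5. Atp6v1a had 4649, 5467 and 6103 in brain day 5, against 1200.4, 1679 and 2112 in blood day 5. Atp6v1a, the catalytic subunit that hydrolyses ATP, gave a log2 difference of 1.76 ± 0.21 (SE), adjusted p = 3.03e-07, with no overlap. Atp6ap1 had 13949.6, 21933 and 34825 in brain day 5, against 9786, 12561 and 14336 in blood day 5. This accessory subunit gave a log2 difference of 0.80 ± 0.29 (SE), adjusted p = 0.0242, and its call ended without blood day 5 replicate 5 (adjusted p = 0.0544) or brain replicates 2 (0.0668), 4 (0.0644) or 6 (0.0509), in each batch alone and, like that of Atp6v1h, under equal-total scaling, TMM scaling and edgeR (up to 0.313 for Atp6ap1 and 0.351 for Atp6v1h). Atp6v0c had 492, 735 and 1410.5 in brain day 5, against 124, 211 and 309 in blood day 5. Atp6v0c, which encodes the proton-carrying ring, did not pass (1.92 ± 0.96, adjusted p = 0.105) although the groups did not overlap. It passed without blood day 1 replicate 2 (adjusted p = 0.000647), the library at 0 for Atp6v0c that shares the estimate of the spread, with only these 2 groups fitted (0.0002), with DESeq2 (0.00158) and with a pseudocount of 5 (0.0332). Atp6v1h, a regulatory subunit, rose by 0.77 ± 0.28 (adjusted p = 0.0272), and its call ended without blood day 5 replicate 6 (adjusted p = 0.0818) or brain replicates 2 (0.0534) or 5 (0.0506). The d2 subunit gene Atp6v0d2, known from osteoclasts and macrophages, ran from 0 to 237 in brain day 5 and did not pass (0.59 ± 1.12).

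**Figure D3:**
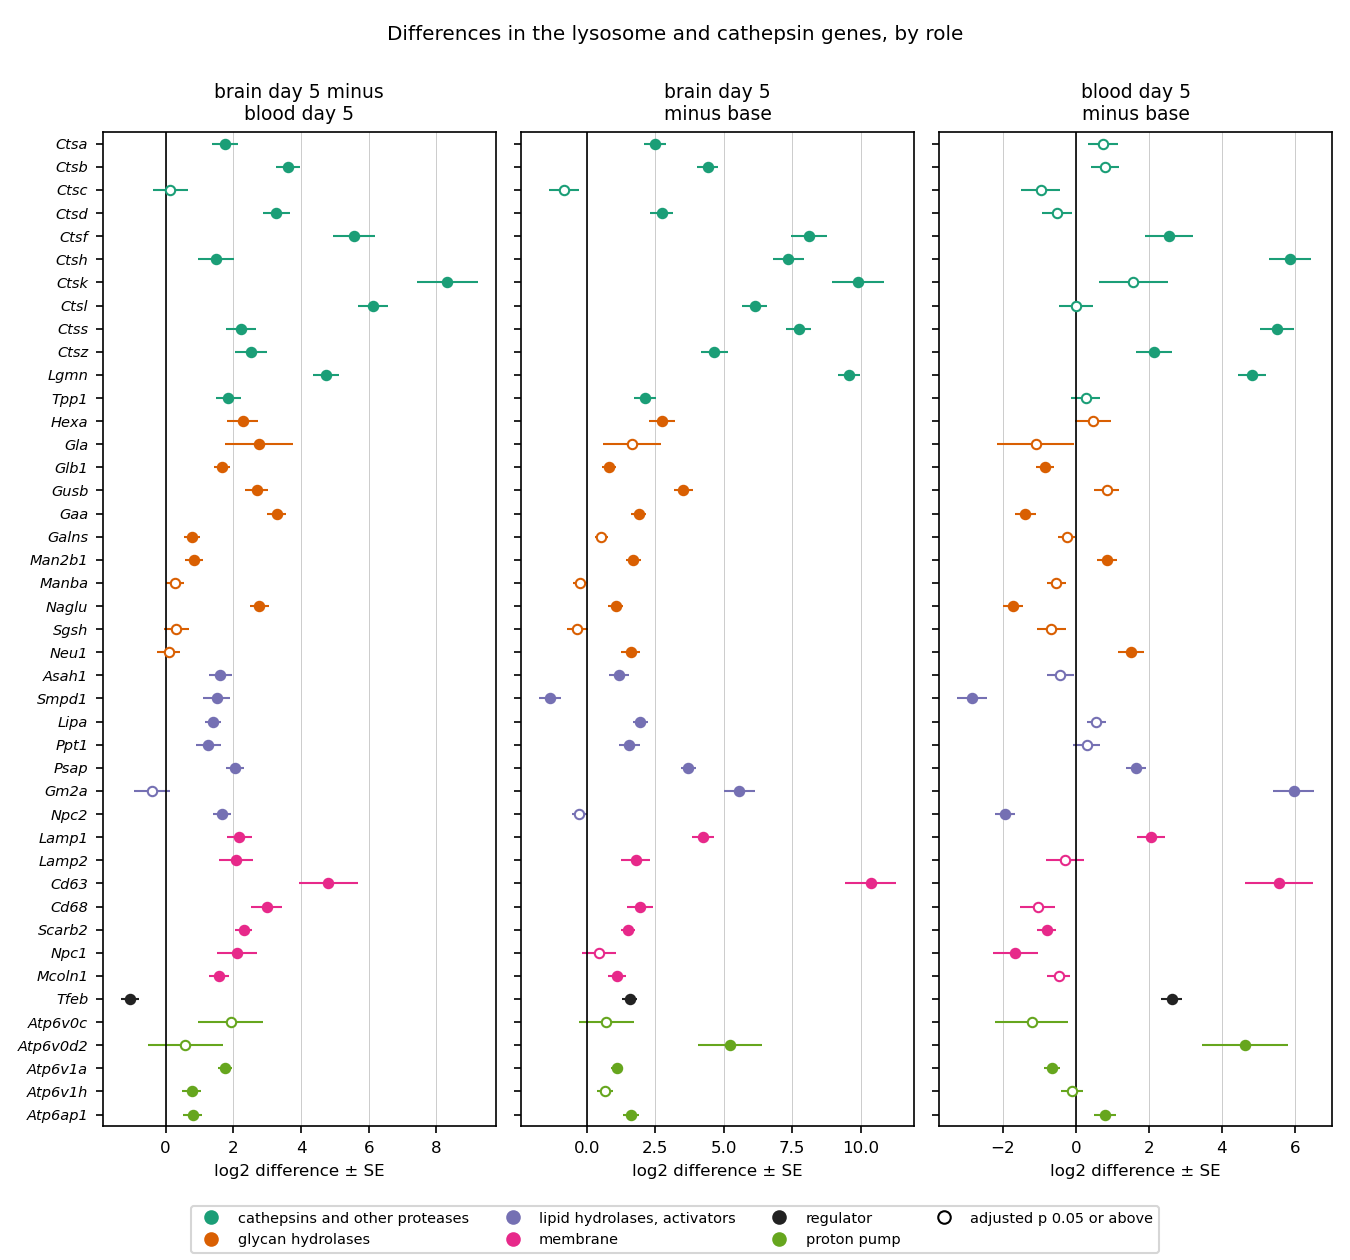
Log2 difference ± SE of each gene (rows, coloured by role) for brain day 5 minus blood day 5, brain day 5 minus base and blood day 5 minus base, each on its own axis. Filled points have an adjusted p under 0.05 (limma, over 15268 genes) and open points do not. In both brain panels nearly all filled points are right of 0, with Tfeb left in the first and Smpd1 left in the second, while the blood panel has filled points on both sides.

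Brain day 5 cells were also compared with the cultured cells from which the transferred cells came. Against base, 33 of the 43 genes were higher, 1 was lower and 9 did not pass, where 49.3% of all genes tested were called, 37.5% higher and 11.7% lower. The median log2 difference was 1.80 over the 43 and 0.67 over all genes. Groups did not overlap for 25 of the 43, against 35.6% of all genes tested. By role, 11 of 12 proteases, 7 of 11 glycan hydrolases, 5 of 7 lipid genes, 6 of 7 membrane genes, 3 of 5 pump genes and Tfeb were higher, and Smpd1 was the gene that was lower. All 34 called genes had the same sign in both batches, with 35 called in batch 1 alone and 25 in batch 2 alone. TMM scaling gave 30 higher and 1 lower among the 43, 5049 higher and 2624 lower among all genes (5733 and 1789 without it), and moved the median over all genes to 0.32. Without the 4 libraries that stand apart, 35 were higher and 1 lower. Both comparisons use the same brain libraries.

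Several large differences from culture were in genes at low levels in base. Values are normalized counts. Cd63 had a median of 43764 in brain day 5, against 7.22, 11, 8.25, 213 and 115 in base replicates 1 to 5. The 3 batch 1 base libraries held almost none, the log2 difference was 10.37 ± 0.92 (adjusted p = 1.95e-09), and it was 11.09 without base replicate 4. Ctsk had a median of 1553 in brain day 5, against 0, 5.48, 0, 0 and 0 in base replicates 1 to 5. Over the libraries these were 9073 reads in brain day 5 and 3 in base, a ratio of read rates of 1766 (95% exact counting interval 604 to 8565, which covers counting error only). Lgmn had a median of 49023 in brain day 5, against 135, 49.3, 31.4, 98.3 and 169 in base replicates 1 to 5. That gave a log2 difference of 9.57 ± 0.39 (SE), adjusted p = 5.49e-15, without overlap. Ctsf had a median of 5027 in brain day 5, against 23.5, 7.31, 18.2, 101 and 5.91 in base replicates 1 to 5, a log2 difference of 8.12 ± 0.67 (SE), adjusted p = 5.23e-10. Base replicate 4 was far above the other base libraries, and without it the difference was 8.81. Ctss had a median of 56902 in brain day 5, against 728, 206, 272, 339 and 119.7 in base replicates 1 to 5, a log2 difference of 7.74 ± 0.46 (SE), adjusted p = 2.29e-12. Ctsh had a median of 13108 in brain day 5, against 325, 74.9, 54.5, 218 and 15.5 in base replicates 1 to 5. Ctsh differed by 7.36 ± 0.57 (adjusted p = 1.89e-10), and by 6.68 without base replicate 5, its lowest library. Ctsl had a median of 25663 in brain day 5, against 269, 371, 317, 907 and 539 in base replicates 1 to 5. Ctsl rose by 6.14 ± 0.47 (adjusted p = 1.35e-10). Gm2a had a median of 5950.2 in brain day 5, against 439, 100.5, 82.5, 417 and 17 in base replicates 1 to 5. Gm2a differed by 5.56 ± 0.56 (adjusted p = 1.59e-08), and by 4.78 without base replicate 5.

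Psap and several other genes had high counts in base already. Psap had a median of 155356 in brain day 5, against 10702, 8214, 8839, 21336 and 7175 in base replicates 1 to 5, and Psap rose by 3.70 ± 0.27 (adjusted p = 9.56e-11). Ctsz rose by 4.66 ± 0.49, Ctsb by 4.42 ± 0.38, Lamp1 by 4.24 ± 0.39, Gusb by 3.54 ± 0.35, Ctsd by 2.75 ± 0.42, Hexa by 2.75 ± 0.48, Ctsa by 2.48 ± 0.41 and Tpp1 by 2.12 ± 0.40. Cd68 had a median of 22726 in brain day 5, against 5152, 4694, 5058, 29501 and 10099 in base replicates 1 to 5. Cd68 overlapped between the groups through base replicate 4 and rose by 1.95 ± 0.48 (adjusted p = 0.00146), though not in batch 2 alone. Scarb2 had a median of 8185 in brain day 5, against 2737, 2776, 2740.0, 3279.6 and 1734 in base replicates 1 to 5, and Scarb2 rose by 1.52 ± 0.26 (adjusted p = 3.14e-05). Gaa had a median of 12617 in brain day 5, against 2538, 2407, 2643, 6023 and 3503 in base replicates 1 to 5. Gaa rose by 1.89 ± 0.29 (adjusted p = 6.35e-06), Naglu by 1.05 ± 0.28 and Glb1 by 0.81 ± 0.25. The base values of Naglu were 2520.2, 2345, 3098, 4523 and 3351, and its call, like that of Glb1, ended in batch 2 alone and with edgeR.

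The lipid and cholesterol genes split. Smpd1 had a median of 4906 in brain day 5, against 9048, 8716, 9062, 33069.6 and 19517 in base replicates 1 to 5. Every base library lay above every brain library, Smpd1 fell by 1.33 on the log2 scale (SE 0.41, adjusted p = 0.00893), and it did not pass in batch 1 alone (-0.67 in batch 1 and -2.32 in batch 2). Npc2 had a median of 14426 in brain day 5, against 12220.1, 13385, 13939.5, 38658 and 17955 in base replicates 1 to 5. Npc2 (-0.26 ± 0.28, adjusted p = 0.461) and Npc1 (0.44 ± 0.62, adjusted p = 0.591) did not pass. Npc1 had a median of 3400.2 in brain day 5, against 2901, 2765, 2912, 2456 and 358 in base replicates 1 to 5, with replicate 5 far below the other base libraries. Asah1 had a median of 7718 in brain day 5, against 2786, 2234, 2407, 2750.4 and 8444 in base replicates 1 to 5, with replicate 5 far above. Asah1 rose by 1.19 ± 0.37 (adjusted p = 0.00953), a call that TMM scaling, edgeR, batch 2 alone and averaging the close libraries ended. Lipa rose by 1.96 ± 0.26 and Ppt1 by 1.56 ± 0.38. Of the membrane genes, Lamp2 (1.80 ± 0.53) and Mcoln1 (1.11 ± 0.32) also rose, and of the glycan hydrolases Man2b1 (1.69 ± 0.27) and Neu1 (1.60 ± 0.35). In batch 2 alone Ppt1, Lamp2, Mcoln1 and Neu1 did not pass, and the calls on Lamp2 (adjusted p up to 0.154) and Mcoln1 (up to 0.273) also ended with edgeR and with close libraries averaged. Gla (1.66 ± 1.05), Galns (0.54 ± 0.24), Manba (-0.25 ± 0.27), Sgsh (-0.34 ± 0.39) and Ctsc (-0.82 ± 0.54) did not pass. Gla had 415, 420.1, 388, 271 and 742 in base replicates 1 to 5.

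Tfeb had a median of 1366 in brain day 5, against 389.9, 379.9, 345, 961 and 324 in base replicates 1 to 5. Tfeb, lower in brain than in blood day 5, was higher in brain than in base by 1.57 ± 0.28 (adjusted p = 4.76e-05), with no overlap even though base replicate 4 stood above the other base libraries. It did not pass in batch 2 alone (adjusted p = 0.112). Atp6v1a had a median of 5467 in brain day 5, against 2735, 2707, 2814, 1320.0 and 3778 in base replicates 1 to 5. Atp6v1a rose by 1.11 ± 0.22 (adjusted p = 0.000223). Atp6ap1 had a median of 21933 in brain day 5, against 6183, 5925, 5785, 13983 and 5685 in base replicates 1 to 5. Atp6ap1 rose by 1.61 ± 0.30 (adjusted p = 8.7e-05), with overlap from base replicate 4. Atp6v0d2 had 1062 reads in brain day 5 and 2 in base, a ratio of read rates of 310.1 (95% exact counting interval 85.6 to 2564). Its log2 difference was 5.23 ± 1.18 (adjusted p = 0.000636), and 6.36 without brain replicate 5, and it did not pass in batch 2 alone (adjusted p = 0.0617). Atp6v0c, with 415, 736, 718, 626 and 120.4 in base replicates 1 to 5, did not pass (0.71 ± 1.00), nor did Atp6v1h (0.68 ± 0.30).

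**Figure D4:**
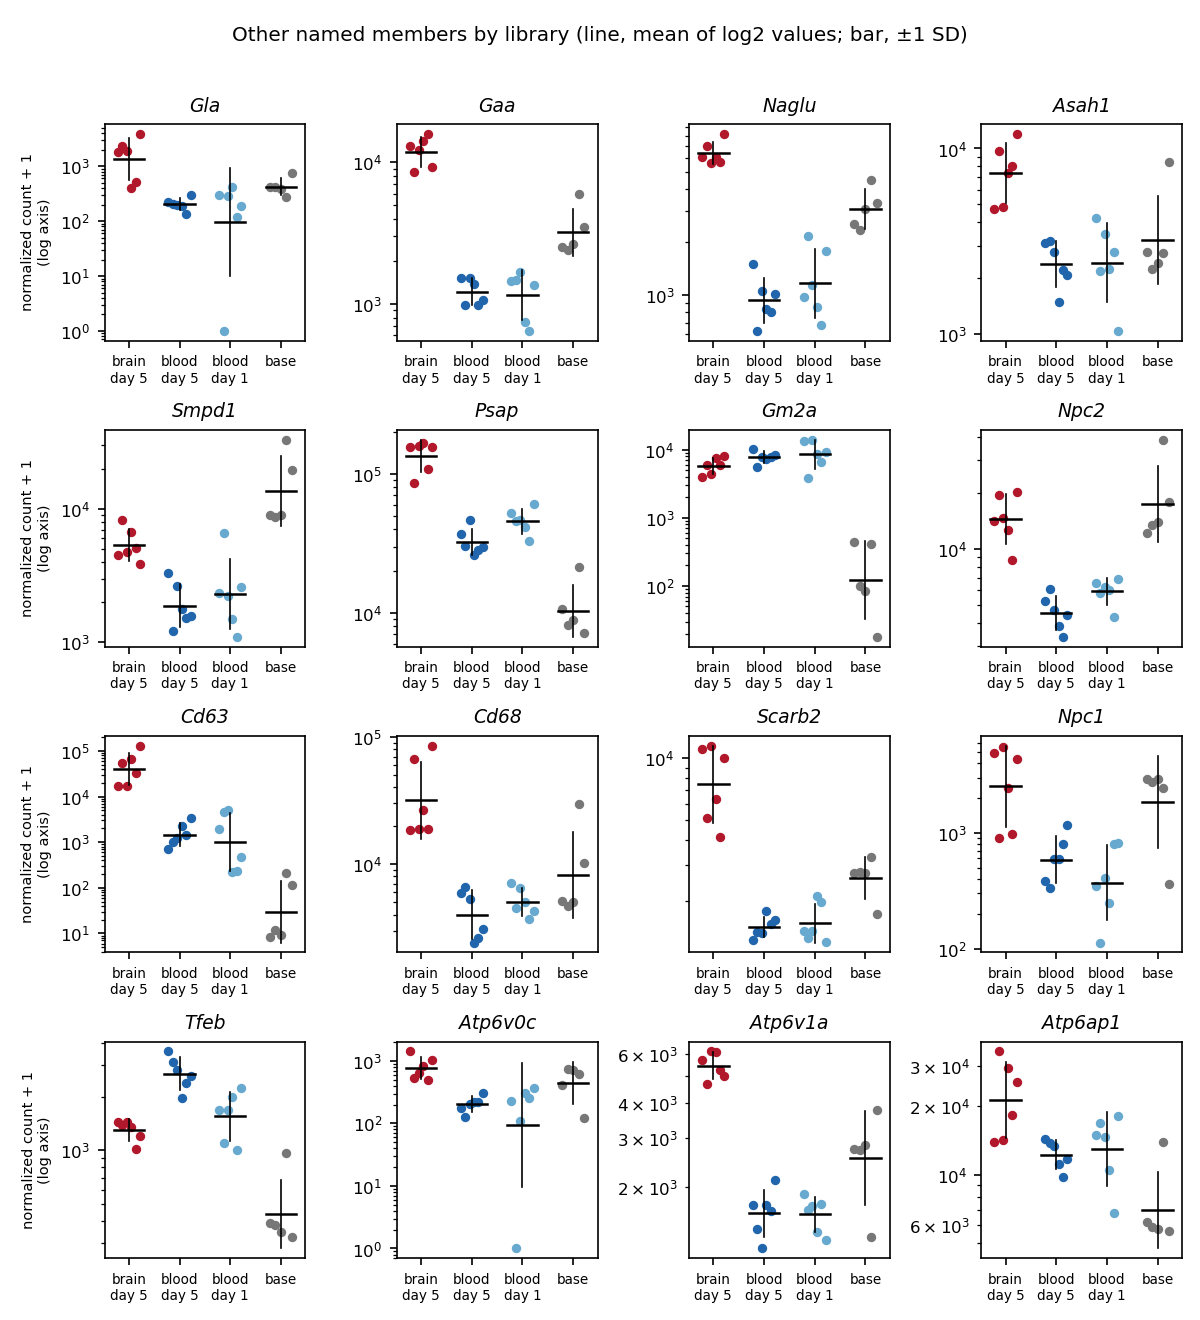
Normalized counts + 1 (log axis) of 16 glycan, lipid, membrane, regulator and pump genes in each library of brain day 5, blood day 5, blood day 1 and base. Points are libraries, the line is the mean of the log2 values and the bar ±1 SD. By their means Smpd1 and Npc2 are lowest in the blood groups and Tfeb is highest in blood day 5, every base library of Gm2a lies below all others, and 1 library of blood day 1 sits at 0 for Gla and Atp6v0c.

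Cells in the blood were compared with culture on both days, and there the lysosomal genes moved in both directions. On day 5, 14 of the 43 were higher than in base, 8 were lower and 21 did not pass, where 31.2% of all genes tested were called, 19.7% higher and 11.5% lower. On day 1, 15 were higher, 9 lower and 19 did not pass, where 32.1% of all genes were called, 18.1% higher and 14.0% lower. The members' median was 0.27 on day 5 and 0.38 on day 1, and that of all genes 0.14 and 0.04. The members' medians were -0.37 and -0.45 in batch 2 alone, and -0.23 and -0.0068 with close libraries averaged, and their sign was positive in batch 1 alone. Groups did not overlap for 15 of the 43 on day 5, against 24.7% of all genes, and for 15 on day 1, against 17.1%. Both days share the base libraries. Equal-total scaling gave 18 higher and 4 lower on day 5 and 18 and 5 on day 1, and moved the median over all genes to 0.44 and 0.13. Over all genes it gave 3669 higher and 1154 lower on day 5, against 3009 and 1760 otherwise. In batch 1 alone 24 and 26 genes were called on days 5 and 1, and in batch 2 alone 17 and 15. Without the 4 libraries that stand apart, 14 were higher and 9 lower on day 5, and 13 and 9 on day 1.

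The genes higher in blood on both days were led by Gm2a and a set of proteases. Normalized counts of Gm2a were 3864, 8879 and 13895 in blood day 1 (lowest, median and highest library). The log2 differences of Gm2a from base were 5.97 ± 0.56 on day 5 (adjusted p = 2.13e-08) and 6.12 ± 0.56 on day 1 (adjusted p = 1.64e-08), and 5.19 and 5.33 without base replicate 5. Ctsh had medians of 4909 in blood day 5 and 6351 in blood day 1, against 74.9 in base, and the differences were 5.87 ± 0.57 on day 5 (adjusted p = 3.14e-08) and 6.03 ± 0.57 on day 1 (adjusted p = 2.22e-08), or 5.19 and 5.36 without base replicate 5. Ctss had medians of 12734 in blood day 5 and 19625 in blood day 1, against 272 in base, with differences of 5.51 ± 0.46 on day 5 (adjusted p = 3.52e-09) and 5.96 ± 0.46 on day 1 (adjusted p = 1.27e-09). Lgmn had medians of 2275 in blood day 5 and 2435 in blood day 1, against 98.3 in base, with differences of 4.83 ± 0.39 on day 5 (adjusted p = 2.29e-09) and 4.89 ± 0.39 on day 1 (adjusted p = 2.26e-09). None of Gm2a, Ctsh, Ctss and Lgmn overlapped with base on either day. Cd63 had 217, 1212 and 5091 in blood day 1, split by batch, and differed from base by 5.57 ± 0.92 on day 5 (adjusted p = 5.1e-05) and 5.04 ± 0.92 on day 1 (adjusted p = 0.000175). On day 1 its difference was 8.54 in batch 1 and 0.87 in batch 2, so that the call did not hold in batch 2 alone. Without base replicate 4 the differences of Cd63 were 6.29 and 5.76.

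Ctsf had 62.8, 191 and 969 in blood day 1, where replicate 2 was the highest, and differed from base by 2.56 ± 0.67 on day 5 (adjusted p = 0.00465) and 3.53 ± 0.67 on day 1 (adjusted p = 0.000243). Without base replicate 4 these were 3.25 and 4.22. Ctsz differed by 2.14 ± 0.49 on day 5 (adjusted p = 0.00165) and 2.74 ± 0.49 on day 1 (adjusted p = 0.000149), Lamp1 by 2.06 ± 0.39 on day 5 (adjusted p = 0.00026) and 2.56 ± 0.39 on day 1 (adjusted p = 2.28e-05) and Psap by 1.65 ± 0.27 on day 5 (adjusted p = 5.5e-05) and 2.14 ± 0.27 on day 1 (adjusted p = 2.03e-06). Tfeb had medians of 2709 in blood day 5 and 1677 in blood day 1, against 379.9 in base. The Tfeb differences were 2.62 ± 0.28 on day 5 (adjusted p = 1.23e-07) and 1.83 ± 0.28 on day 1 (adjusted p = 2.01e-05), with no overlap on either day. Neu1 passed on day 5 (1.52 ± 0.35, adjusted p = 0.00162) and barely on day 1 (0.91 ± 0.35, adjusted p = 0.0491). Its day 1 call ended without any one of 20 of the 23 libraries (adjusted p up to 0.123). In batch 2 alone the day 1 difference of Neu1 was -0.013 ± 0.55, and it did not pass. Man2b1 passed on day 5 (0.85 ± 0.27, adjusted p = 0.0198), but not without base replicate 5 (adjusted p = 0.0949). Ctsb (1.41 ± 0.38) and Gusb (1.14 ± 0.35) passed on day 1 (adjusted p = 0.00673 and 0.0148), and Gusb did not pass without base replicate 5 (adjusted p = 0.0621).

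The genes lower in blood than in culture were mainly of lipid, cholesterol and glycan breakdown. Smpd1 had medians of 1665 in blood day 5 and 2278 in blood day 1, against 9062 in base. Smpd1 fell on both days, by 2.84 on day 5 and 2.56 on day 1 (log2, adjusted p = 8.96e-06 and 3.7e-05), without overlap. Npc2 had medians of 4563 in blood day 5 and 6140.0 in blood day 1, against 13939.5 in base, with differences of -1.94 ± 0.28 on day 5 (adjusted p = 7.64e-06) and -1.55 ± 0.28 on day 1 (adjusted p = 0.000124). Naglu had medians of 924 in blood day 5 and 1061 in blood day 1, against 3098 in base, with differences of -1.72 ± 0.28 on day 5 (adjusted p = 4.94e-05) and -1.40 ± 0.28 on day 1 (adjusted p = 0.000519). Gaa had medians of 1229.6 in blood day 5 and 1404 in blood day 1, against 2643 in base, with differences of -1.39 ± 0.29 on day 5 (adjusted p = 0.000618) and -1.47 ± 0.29 on day 1 (adjusted p = 0.000357). Npc1, uneven in base and blood, had 111, 376 and 815 in blood day 1. It differed by -1.65 ± 0.62 on day 5 (adjusted p = 0.0466) and -2.32 ± 0.62 on day 1 (adjusted p = 0.00614), and by -2.34 and -3.01 without base replicate 5, while the day 5 call ended without any one of 13 libraries (adjusted p up to 0.11). Scarb2 differed by -0.79 ± 0.26 on day 5 (adjusted p = 0.0231) and -0.74 ± 0.26 on day 1 (adjusted p = 0.0344), and its calls ended without any one of 2 libraries on day 5 and 8 on day 1 (adjusted p up to 0.0819). Glb1 was lower on day 5 (-0.84 ± 0.25, adjusted p = 0.012), and Sgsh (-1.03 ± 0.39, adjusted p = 0.0451) and Manba (-0.83 ± 0.27, adjusted p = 0.0212) on day 1. The calls on Sgsh and Manba ended without any one of 13 and 3 libraries (adjusted p up to 0.154). In batch 2 alone the day 5 rises of Ctsf, Ctsz, Psap and Neu1 and the day 1 rises of Ctsb, Ctsz and Tfeb did not pass, nor did the falls of Npc1 and Scarb2 on both days. Under equal-total scaling Glb1, Scarb2 and Npc1 on day 5 and Scarb2, Sgsh and Manba on day 1 did not pass.

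Pump genes also went both ways. Atp6v1a had 1286, 1673 and 1878 in blood day 1 and differed from base by -0.65 ± 0.22 on day 5 (adjusted p = 0.0302) and -0.67 ± 0.22 on day 1 (adjusted p = 0.0262). Atp6ap1 had 6779, 14849 and 18138 in blood day 1 and differed by 0.81 ± 0.30 on day 5 (adjusted p = 0.0441) and 0.89 ± 0.30 on day 1 (adjusted p = 0.0262). The calls on Atp6v1a ended without any one of 6 libraries on day 5 and 5 on day 1 (adjusted p up to 0.111) and under equal-total scaling on both days, and those on Atp6ap1 without any one of 12 and 7 (adjusted p up to 0.103). Atp6v0d2 had 405 reads in blood day 5, 443 in blood day 1 and 2 in base, and differed by 4.64 ± 1.18 on day 5 (adjusted p = 0.00364) and 5.07 ± 1.18 on day 1 (adjusted p = 0.00185). The day 5 value was 5.40 without blood day 5 replicate 2. Atp6v0d2 did not pass in batch 2 alone on either day, nor in batch 1 alone on day 5 (adjusted p up to 0.0813). Atp6v0c had 0, 238 and 364 in blood day 1, with replicate 2 at 0, and did not pass on either day (adjusted p = 0.407 and 0.0832). Ctsk had 53 reads in blood day 5, 28 in blood day 1 and 3 in base, and did not pass (adjusted p = 0.224 and 0.931). The blood libraries carried markers of other blood cells, and most of these lists summed to less in base. Erythroid ranges overlapped with base, and NK cell sums reached their highest values in base. Platelet markers (9 genes) summed to 0.165 to 1.6% in blood day 5, 0.401 to 5.62% in blood day 1 and 0.000308 to 0.0394% in base. Neutrophil markers (10 genes) summed to 0.286 to 3.06%, 0.0824 to 0.634% and 0.00449 to 0.0313%, and B cell markers (8 genes) to 0.237 to 0.532%, 0.05 to 0.35% and 0.000348 to 0.0142%, in the same order of groups. Monocyte and macrophage markers (9 of 11 in the table, Itgam at 0 throughout base) summed to 0.105 to 0.162%, 0.0413 to 0.136% and 0.00296 to 0.0102%. Erythroid markers (4 of 8 in the table) summed to 0.267 to 3.72%, 0.357 to 8.39% and 0.00104 to 0.409%, and dendritic cell markers (5 of 6 in the table) to 0.00445 to 0.00856%, 0.00747 to 0.0228% and 2.1e-05 to 0.000416%, and all 4 and all 5 were higher than in base on both days. NK cell markers (8 genes) summed to 0.604 to 2.33%, 0.283 to 1.18% and 2.13 to 8.34%, with 5 higher and 2 lower than in base on both days. Ncr1, the NK receptor gene among them, averaged 17972 normalized counts in blood day 5, 15346 in blood day 1 and 3.52 in base. Of 7 T cell markers, 3 were higher and 3 lower than in base on day 5, and 3 and 2 on day 1. The part of these cells in the blood differences was not tested.

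Between the 2 blood days no difference was detected for any of the 43 genes by limma (0 higher, 0 lower), where 0.111% of all genes tested, 17 in all, were called, 0.105% higher and 0.00655% lower. edgeR and DESeq2 on the recovered reads also called 0 of the 43. At an unadjusted p under 0.05, limma gave 3, edgeR 2 and DESeq2 4 of them. No member's groups failed to overlap, against 1.12% of all genes. The smallest adjusted p of the members was that of Tfeb, with 1962, 2709 and 3586 in blood day 5, against 1002, 1677 and 2248 in blood day 1, a log2 difference of 0.80 ± 0.27 (adjusted p = 0.448, 1.12 in batch 1 and 0.48 in batch 2). Ctsl had 303, 417 and 597 in blood day 5, against 316, 743 and 3957 in blood day 1, and the difference was -0.92 ± 0.44 (adjusted p = 0.648). Lgmn had 1961, 2275 and 2983 in blood day 5, against 1527, 2435 and 4721 in blood day 1 (-0.06 ± 0.37). Smpd1 had 1209, 1665 and 3290.1 in blood day 5, against 1096, 2278 and 6610.1 in blood day 1 (-0.29 ± 0.39). Blood day 1 replicate 2 was the highest of its group for Ctsl, Ctsf, Lgmn and Smpd1. Gla had 0, 234 and 413 in blood day 1, with the 0 again in replicate 2, and differed between the days by 1.07 ± 1.00. The difference of Cd63 had opposite signs in the batches, -1.91 in batch 1 and 2.96 in batch 2, and was 0.53 ± 0.88 over both.

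Levels of different genes were compared per kilobase of merged exons (GENCODE M21). Ctsd was the highest of the 43 in every group, with 268536 ± 130176 normalized counts per kb in brain day 5, 25945 ± 4937 in blood day 5, 43231 ± 40914 in blood day 1 and 38460.5 ± 14766 in base (SD). Blood day 1 replicate 2 was far above its group for Ctsd, and without it the blood day 1 mean was 26853 ± 8991 per kb (SD, n = 5). In brain day 5 Ctsd was followed by Ctsb (60826 ± 37161), Ctss (55495 ± 45514), Ctsz (52196 ± 36079) and Psap (50365 ± 11981), which lay within each other's spread. In blood day 5 the order after Ctsd was Psap (12043 ± 2828), Ctss (9732 ± 2834) and Ctsz (7885 ± 2849), and in blood day 1 it was the same. In base the second was Cd68 (8672 ± 8459.9), followed by Ctsc (5129 ± 4831), Smpd1 (4759.6 ± 3189.7) and Psap (4101 ± 2107), again within each other's spread. Ctsc had 9252, 9770.0, 9366, 65293 and 55267 normalized counts in base replicates 1 to 5, so that its place in base rests on replicates 4 and 5, the libraries of batch 2.

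The 6 brain libraries differed among themselves in the amount of lysosomal transcripts. The summed share of the 43 genes was 5.54, 8.68, 5.61, 6.47, 5.25 and 11.6% of the normalized total in brain replicates 1 to 6. The summed share of the 15 microglia markers in the same libraries was 1.2, 1.53, 1.22, 1.21, 1.48 and 3.34%. Replicate 6 was highest and replicate 2 second in both, and the part of the marker cells in this spread was not tested. In blood day 5 the lysosomal share ran from 1.29 to 1.65%, in blood day 1 from 1.42 to 1.8%, and in base it was 0.837, 0.809, 0.837, 2.05 and 1.1% in replicates 1 to 5, with replicate 4 highest. Base replicates 1 to 3 were close to each other (recovered reads gave a chi-square over its degrees of freedom of 4.29 to 13.1), as were brain replicates 1 and 3 (10.4), against at least 47.9 for the other pairs of libraries of a group. Both groups may therefore hold fewer independent samples than libraries. With those libraries averaged, 34 genes were higher and 1 lower in brain day 5 than in blood day 5, and 29 higher and 1 lower than in base. Against base, 14 were then higher and 7 lower in blood day 5, with 18 of the 22 calls kept, and 13 higher and 4 lower in blood day 1, with 16 of the 24 kept.

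**Figure D5:**
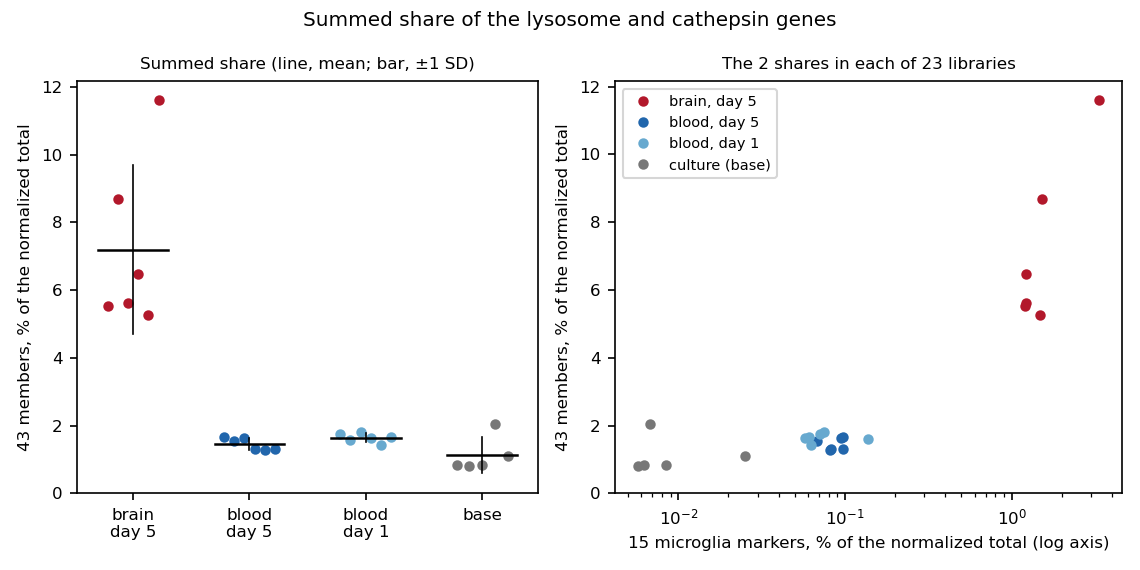
Left, summed share of the 43 genes in percent of the normalized total in each library of brain day 5, blood day 5, blood day 1 and base, with the mean (line) and ±1 SD (bar). Right, the same share (vertical axis) beside the summed share of 15 microglia markers (horizontal log axis) in each of the 23 libraries. The 6 brain libraries lie between 5.25 and 11.6%, above all others, and hold the highest marker shares.

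Other lysosomal genes were counted in the same comparisons. Of 108 further genes listed (other hydrolases, other membrane and transport proteins, other pump subunits, sorting, cathepsin inhibitors and the mTORC1 and Tfeb regulators), 102 were in the table and 101 tested, and 50 were higher and 9 lower in brain day 5 than in blood day 5. Against base, 48 were higher and 9 lower in brain day 5, 24 and 12 in blood day 5, and 21 and 14 in blood day 1, and between the blood days 0 and 0. Set against the shares of all genes given above, 49.5% were higher in brain day 5 than in blood day 5 where 33.5% of all genes were, and 47.5% were higher in brain day 5 than in base where 37.5% were. In blood day 5 23.8% and in blood day 1 20.8% were higher than in base, near the 19.7% and 18.1% of all genes. Other hydrolases were higher in brain for 23 of 30 (76.7%), against blood day 5, and lower for 5. Arsg, a sulfatase, averaged 4908 ± 2710.4 normalized counts in brain day 5 and 80.8 ± 57.7 in blood day 5 (SD), a log2 difference of 6.29 ± 1.02. Among those that fell were Ctsw, a cathepsin known from cytotoxic lymphocytes, with 54.1 ± 16.4 in brain day 5 and 17669 ± 6787 in blood day 5 (-8.28 ± 0.30), and Ctsg, a neutrophil granule protease (-3.47 ± 1.25). Of 25 other membrane and transport genes, 9 were higher in brain (36%, near the 33.5% of all genes) and 2 lower, led by Gpnmb (7.36 ± 0.73), a glycoprotein of phagocytes, and Laptm4b (5.26 ± 0.62). Of 15 other pump genes, 8 were higher (53.3%) and none lower, with Atp6v0e2 at 7.88 ± 1.12 and Atp6v0a1 at 2.45 ± 0.46.

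Among 8 sorting genes, 3 were higher in brain day 5 than in blood day 5 (37.5%, near the 33.5% of all genes) and none lower, among them Grn, the progranulin gene (3.40 ± 0.38), and Sort1, the sortilin gene (2.72 ± 0.55). Of 8 tested cathepsin inhibitors, 3 were higher and 2 lower, also near that share. Cst3, the secreted inhibitor cystatin C, averaged 109983 ± 54964 in brain day 5 and 11159 ± 2013 in blood day 5 (3.16 ± 0.41), and Serpina3g averaged 189 ± 151 and 3556 ± 366 (-4.51 ± 0.55). Of 15 regulators, 4 were higher (26.7%, no more than the 33.5% of all genes) and none lower, led by Rragd (5.41 ± 0.77), a GTPase that brings mTORC1 to lysosomes, and Mitf (5.34 ± 1.26), a relative of Tfeb. Between blood and base, Ctse rose on both days (6.58 ± 0.87 on day 5 and 7.12 ± 0.87 on day 1), as did Slc11a1 (6.01 ± 0.80 and 5.52 ± 0.80), a metal transporter of phagocyte lysosomes, and Serpina3g (8.21 ± 0.58 and 8.81 ± 0.58). Lower than in base on both days were Abcb9 (-3.06 ± 0.36 and -2.66 ± 0.36), a peptide transporter, Cst7 (-2.52 ± 0.29 and -2.23 ± 0.29), the cystatin F gene, and Rptor (-3.06 ± 0.40 and -3.64 ± 0.40), a subunit of mTORC1. All differences in this list are log2 values ± SE with an adjusted p under 0.05 by limma over all genes.

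Several genes overlap others on the opposite strand in GENCODE M21, among them Ctsa with Pltp and Neurl2, Ctsb with Fdft1 and Ppt1 with Cap1, and no source used here states the strand setting of the counts. On the same strand, Ctsd overlaps a predicted gene and Glb1 overlaps Tmppe. Their values may include reads of the neighbour. The genes with no per-library values above ranged, in brain day 5, from a mean of 125 (Atp6v0d2) to 631327 (Ctsd) normalized counts.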

How the data were processed

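RNA was sequenced as 150-base read pairs from 23 libraries of 4 groups in 2 batches. The authors deposited 1 table of normalized counts (a signal value per gene), and the values themselves are whole reads divided by 1 factor per library. The submitters' processing notes name fastp, HISAT2 2.0.5 and the mm10 build, while the counter, annotation and strand setting are stated in no source used here. Whole reads were recovered from the steps between low values: 100% of values came out whole within 0.1 of a read, and depth is the sum of these reads. The 15268 of 19945 genes that reached 10 normalized counts in 5 or more libraries were tested with limma 3.58.1 (R 4.3.3, eBayes with trend) on log2(normalized count + 1), with 4 groups and batch as terms and all 23 libraries in 1 fit, Benjamini-Hochberg adjustment over all genes and a two-sided threshold of 0.05. A fold change on this scale understates the change of low genes. edgeR 4.0.16 (quasi-likelihood) and DESeq2 1.42.0 were run on the recovered reads as alternatives, beside other pseudocounts, filters, scalings, each batch alone, the replicate number as a block and leaving out each library. The fit was also run on simulated counts with the same relative spread for every gene, no batch difference and no library standing apart. That run cannot show how the fit handles libraries as uneven as these. The 43 genes and all other lists were chosen with earlier results of these data known, so no list was tested as a set. Values by library are given, among genes whose higher group averaged 100 or more, for the 3 of each role with the largest difference of brain day 5 from blood day 5, for the 3 largest called rises and falls of each comparison, and for Tfeb. Other lysosomal genes are named where they are among the 2 largest called rises or falls of their list, and 1 of them is not reported here. Gene coordinates and lengths came from GENCODE M21 and promoter sequences from RefSeq (GRCm38.p6, 250 bases before to 50 after each start). Exact intervals on read ratios cover counting error only.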

Additional observations from a re-analysis of the deposited data

Results flagged for a closer look

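Of 92 pairs of a group and a gene (or the summed share), 18 held a library that stood apart from the rest of the group by more than Dixon's 95% critical value. Chance alone gives about 1 in 20 groups where values are normally distributed, but the normalized counts were used here without a log. The pairs also share libraries, so 18 of 92 cannot be set against that rate.

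Base replicate 4 accounted for 7 of them. Its normalized counts were 13983 for Atp6ap1 (nearest base library 6183), 29501 for Cd68 (10099), 101 for Ctsf (23.5), 38658 for Npc2 (17955), 21336 for Psap (10702) and 961 for Tfeb (389.9), and its summed share of the 43 genes was 2.05% (1.1%). Base replicate 5 was the highest for Asah1, 8444 (2786), and the lowest for Npc1, 358 (2456). Ctsk was 5.48 in base replicate 2 and 17.4 in blood day 1 replicate 4, with the other libraries of each group at 0.

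Blood day 1 replicate 2 was the highest of its group for Ctsf, 969 (341), Ctsl, 3957 (959), Lgmn, 4721 (2515), and Smpd1, 6610.1 (2589.7). Brain replicate 2 was the highest of its group for Ctsf, 12333 (5825). Brain replicate 6 was the highest for Ctss, 193574 (86777), and Lgmn, 154639 (78089), and also had the highest share of microglia markers in its group, 3.34%. The part of those cells in these values was not tested.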

How the results depend on the processing

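The number of the 43 genes called was within 1.5 times the reported one under every alternative run, except for blood day 1 against base in batch 2 alone, where 15 were called and not 24. That batch holds 2 base libraries and 3 of blood day 1. Without single libraries the counts ran from 32 to 37 for brain day 5 against blood day 5, 34 to 35 for brain day 5 against base, 19 to 22 for blood day 5 against base, 18 to 27 for blood day 1 against base and 0 to 0 between the blood days. edgeR gave 31, 30, 21, 22 and 0, and DESeq2 36, 35, 23, 28 and 0, in the same order. In batch 2 alone, 7 of the 43 differences from base had the other sign for blood day 5, 8 for blood day 1 and 1 for brain day 5. Neu1 on day 1 (-0.013) had been called over both batches, and Tpp1 (-1.06 on day 5 and -1.08 on day 1) was called in batch 2 alone and not over both. The cause was not tested. Over all genes, batch 2 alone gave 2656 calls for blood day 1 against base and not 4908. Between the blood days 17 genes were called, against 5 with edgeR, 8 in batch 1 alone, 76 in batch 2 alone, 133 with DESeq2, 10 with close libraries averaged, 11 with only these groups, and 8 to 22 without single libraries.

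Same-numbered libraries of different groups showed low correlations of their deviations (r -0.104 to 0.189 over 33 pairs, median 0.0141). Pairs of unlike number gave r -0.167 to 0.12 (66 pairs, median -0.00807). Each deviation is from the mean of the few libraries of a group in a batch, so these values cannot show whether the numbers pair the samples. With the replicate number as a block, 36, 35, 22, 23 and 0 of the 43 genes were called, in the order above.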
